A study of Rattus norvegicus with 232 samples.

Results

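RNA levels of 10 genes that mark GABAergic interneurons were followed across whole brains of the Hybrid Rat Diversity Panel. The genes are Gad1, Gad2, Slc32a1, Pvalb, Calb2, Sst, Vip, Npy, Cck and Lhx6, chosen by name as markers of these neurons. They are 10 of the 20859 genes in the RefSeq gene table of processing version v7.1, and all 10 were measured. The panel joins inbred rat strains whose animals are close to genetically identical within a strain. Untreated rats were used, labelled male where a sex was given, and the labels give no age. The paper states male sex and an age range for the strains it studied. For the strains of the published study, 1 side of a sagittally split brain was sequenced after ribosomal RNA had been depleted.

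The table held 214 libraries of 197 animals and 74 strains, and 192 animals of 69 strains with at least 2 animals entered the analysis. Of these strains, 54 had 3 animals and 15 had 2. The HXB/BXH recombinant inbred family, bred from SHR/OlaIpcv and BN-Lx/Cub, gave 30 strains and 88 animals, and the FXLE/LEXF recombinant inbred family gave 16 strains and 40 animals. The 23 classic inbred strains, to which SHR/OlaIpcv and BN-Lx/Cub were counted, gave 64 animals. Each strain is a single inbred line, so a difference between strains holds for these lines as they were kept and sequenced. All values are on the log2 scale of the deposited table, where a difference of 1 is a 2-fold change. No correction for gene length is stated for them, so levels were compared between strains and never between genes.

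GABA is the main inhibitory transmitter of the adult brain, and the neurons that release it make it from glutamate with glutamate decarboxylase and load it into vesicles with a dedicated transporter. Local interneurons of the cortex and hippocampus fall into classes that are told apart by a calcium-binding protein or a neuropeptide, chiefly parvalbumin, somatostatin and vasoactive intestinal peptide. None of these markers belongs to cortical interneurons alone in a whole brain: parvalbumin and calretinin are abundant in the cerebellum, striatal projection neurons make GABA, and cholecystokinin is made by many cortical glutamatergic neurons. In such tissue, fewer cells of a type and less RNA per cell cannot be told apart.

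The brain label held in every library. Slc17a7, the vesicular glutamate transporter of cortical neurons, lay between 13.94 and 15.09, Mbp of myelin between 16.46 and 17.59, Gfap of astrocytes between 13.68 and 14.80, and Gad1 between 12.89 and 13.55. The median of all genes ran from 8.18 to 8.42 over the libraries, and depth is unknown because no counts were given. Some animals stood apart. In 8 animals the mean of 8 liver genes lay more than 2 above the median of all animals (7.28), led by HXB10/Ipcv animal 1 at 13.15 and BXH6/Cub animal 3 at 13.09. In 4 libraries, 3 of LEW/Crl and 1 of HXB17/Ipcv, the mean of 4 Y-linked genes was 7.60 to 7.83 against 8.19 to 9.33 in the other 210. Results were recomputed without these 12 animals and without the last remaining animal of F344/Stm, HXB10/Ipcv and HXB17/Ipcv, 15 in all, a choice made after the data had been seen, and the calls that changed are named beside the result. The libraries came from 17 sequencing batches, and for 23 of them the sample title gave another batch number than the batch field.

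Strain accounted for a measurable share of the variance in 5 of the 10 genes. In a 1-way layout of strain over the 192 animals, broad-sense heritability (R2, the sum of squares between strains as a share of the total) was 0.564 for Vip, 0.556 for Gad1, 0.527 for Gad2, 0.514 for Calb2 and 0.504 for Cck, and each passed limma's moderated F-test, with the false discovery rate held at 5% over all genes. It was 0.435 for Pvalb, 0.420 for Lhx6, 0.395 for Npy, 0.372 for Sst and 0.360 for Slc32a1, and none of these 5 passed. The share of all 20859 genes that passed was 36.8%, so that 5 of 10 members lies near the background. The count was 5 of 10 with batch as a term, where 58.6% of all genes passed, and 6 of 10 in the v5 table, where 62.8% did. The median R2 of the members was 0.470 against 0.434 over all genes. R2 rises with the number of strains even where strains do not differ, so the between-strain share of the variance, which corrects for this, was computed as well, and its median was 0.178 in the members against 0.123 over all genes. That share ran from 0.325 for Vip down to 0.00625 for Slc32a1.

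**Figure D1:**
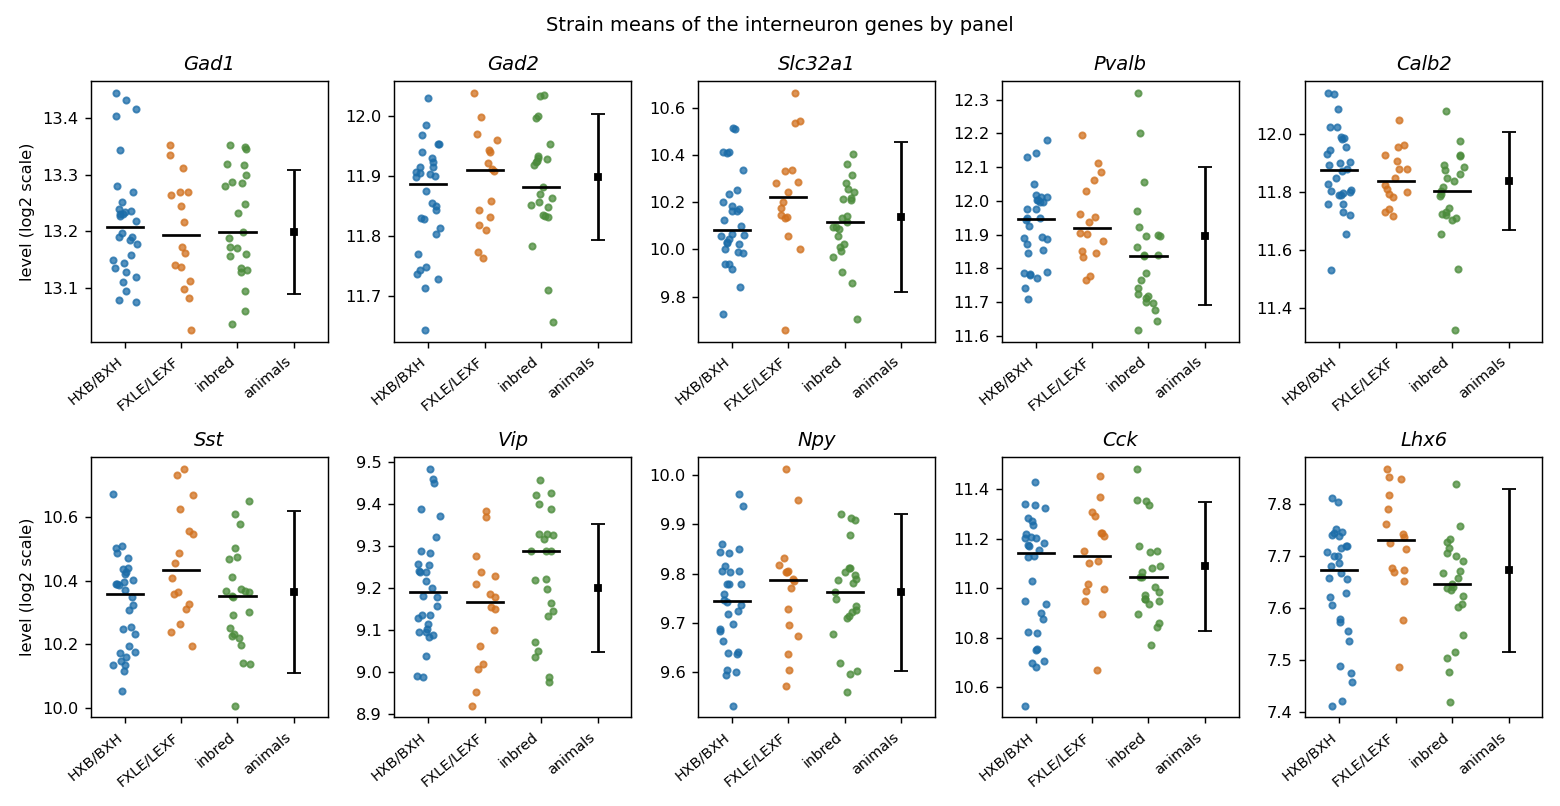
Each panel plots 1 gene, with the level on the log2 scale on the vertical axis and 1 point for each strain mean, grouped as HXB/BXH (30 strains), FXLE/LEXF (16) and classic inbred (23). Horizontal bars are group medians, and the black square with its bar shows the median strain mean plus and minus 1 SD of animals within a strain. The strain means of Slc32a1 run from 9.66 to 10.66 beside a within-strain SD of 0.317, while those of Gad1 run from 13.03 to 13.45 beside 0.109.

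The 2 decarboxylases held narrow ranges. Gad1 encodes GAD67, the isoform that supplies most basal GABA, and Gad2 encodes GAD65, which is held at nerve terminals. Positions in rn6, here and below, are of the authors' reconstructed gene models of v5, and may differ from the Ensembl genes named. Gad1 (ENSRNOG00000000007) spans chromosome 3, 56860571 to 56913693, and Gad2 (ENSRNOG00000018200) spans chromosome 17, 89171250 to 89296710. In FXLE20/Stm, the strain with the lowest mean of Gad1, the 3 animals had 12.96, 13.05 and 13.07. In HXB5/Ipcv, the highest, they had 13.35, 13.43 and 13.55, and the 2 strains did not overlap. The strain means lay 0.42 apart, or 1.34-fold, with an SD of 0.109 between animals of a strain, and the adjusted p over all 69 strains was 0.00043. These strains, like the other extreme pairs below, were chosen as lowest and highest, so no test was run between them.

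For Gad2 the lowest strain was HXB22/Ipcv with animals at 11.54, 11.62 and 11.77. The highest was LEXF5/Stm with 11.99 and 12.09. The range of strain means was 0.40, or 1.31-fold, beside a within-strain SD of 0.105 (adjusted p = 0.00302). Sorted by level, no neighbouring strains differed by more than the standard error of a difference between 2 strains of 3 animals (0.089 for Gad1 and 0.086 for Gad2). With so many strain means in so narrow a range such a gap was unlikely in any case. It therefore does not show whether the strains form classes.

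Slc32a1 encodes VGAT, the transporter that fills synaptic vesicles with GABA and glycine. Its strain means had the widest range of the 10 genes, 1.00 or 2.01-fold, and yet strain accounted for the smallest share of its variance. The 3 animals of LEXF10A/Stm, the lowest strain, had 9.43, 9.74 and 9.81, while the 2 of LEXF5/Stm, the highest, had 10.29 and 11.03. In BN-Lx/Cub the 3 animals alone spread from 9.08 to 10.32, wider than the distance between those extreme means. The SD within strains was 0.317, and the F-test gave an adjusted p of 0.469.

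Among the calcium-binding proteins, Pvalb encodes parvalbumin, a calcium buffer of basket cells and of cerebellar Purkinje and molecular layer cells (ENSRNOG00000006471, rn6 chromosome 7, 119406687 to 119468043). Its lowest strain was COP/CrCrl with animals at 11.59 and 11.65. LH/MavRrrc was the highest, with 12.25, 12.30 and 12.41. The means spanned 0.70, or 1.63-fold, beside a within-strain SD of 0.205, and the adjusted p was 0.0957 over all strains. This call depended on the table: in the Ensembl 96 gene table of version v5, with 45 strains, R2 of Pvalb was 0.851 and the adjusted p 3.45e-20, in a run where 62.8% of all genes passed, and in the reconstructed genes of v7.1 the adjusted p was 0.0304. What set the tables apart was not tested.

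Calb2 encodes calretinin, the calcium-binding protein of many Vip interneurons and of cerebellar granule cells (ENSRNOG00000016977, rn6 chromosome 19, 41482728 to 41509658). In SR/JrHsd, the Dahl salt-resistant strain, its 3 animals stood at 11.20, 11.28 and 11.50. The next strain up, HXB27/Ipcv, had 11.48, 11.48 and 11.63, and the gap of 0.21 between their means was the only one of all 68 gaps of Calb2 above the standard error of a difference (0.138). At the top, the 2 animals of HXB2/Ipcv had 12.002 and 12.281. Calb2 differed among strains with an adjusted p of 0.00358.

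The 4 neuropeptide genes separated into Vip and Cck, which differed among strains, and Sst and Npy, which did not pass. Vip encodes vasoactive intestinal peptide, made by interneurons that mostly inhibit other interneurons and by the suprachiasmatic nucleus (ENSRNOG00000018808, rn6 chromosome 1, 42169501 to 42177582). LEXF7B/Stm was the lowest strain with animals at 8.80, 8.92 and 9.04, and HXB24/Ipcv the highest with 9.39, 9.48 and 9.58. No animal of one reached the other. The means lay 0.56 apart, 1.48-fold, against a within-strain SD of 0.153, and Vip had the smallest adjusted p of the 10 genes, 0.000132.

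Cck encodes cholecystokinin (ENSRNOG00000019321, rn6 chromosome 8, 130099073 to 130127392). In BXH8/Cub, the lowest strain, its animals had 10.33, 10.56 and 10.69, and in SR/JrHsd, the highest, 11.22, 11.38 and 11.86. The 0.96 between the means is a 1.94-fold difference (adjusted p = 0.00508, within-strain SD 0.260). SR/JrHsd was thus lowest for Calb2 and highest for Cck. It also had the lowest olfactory bulb mean (5.61) and the highest striatal mean (10.65) of the 69 strains, with a cerebellar mean of 9.80 and a cortical glutamatergic mean of 10.56, and the part of these in its levels was not tested. BXH8/Cub was at the same time the second highest strain for Gad1, with 13.35, 13.43 and 13.51.

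Sst encodes somatostatin (ENSRNOG00000001837, rn6 chromosome 11, 80358211 to 80359444). Its strain means ran from 10.01 in SHR/OlaIpcv, with animals at 9.88 and 10.14, to 10.75 in LEXF5/Stm, with animals at 10.58 and 10.92. That range of 0.75 stood beside a within-strain SD of 0.255 and an adjusted p of 0.395. Npy encodes neuropeptide Y, found in part of the Sst cells, in neurogliaform cells and in the arcuate nucleus (ENSRNOG00000046449, rn6 chromosome 4, 79557854 to 79641712). Npy ran from 9.47, 9.55 and 9.58 in HXB1/Ipcv to 9.86, 10.08 and 10.11 in FXLE20/Stm, the strain that was lowest for Gad1. Its within-strain SD was 0.160 and its adjusted p 0.278. Lhx6 encodes the LIM homeobox factor that Pvalb and Sst interneurons carry over from the medial ganglionic eminence (ENSRNOG00000005996, rn6 chromosome 3, 15409663 to 15432659). Its level was lowest in HXB18/Ipcv (7.26, 7.41 and 7.56) and highest in LEXF5/Stm (7.78 and 7.96), with an adjusted p of 0.160. LEXF5/Stm was thus the highest of 69 strains for Gad2, Slc32a1, Sst and Lhx6, and it rests on 2 animals. It also had the highest cortical glutamatergic mean (10.57) and the lowest Aqp4 of astrocytes (13.68) and P2ry12 of microglia (8.73). The lowest means of Aldh1l1 and Gfap of astrocytes and of C1qa and Cx3cr1 of microglia lay in other strains. The part of these cell types in the levels of LEXF5/Stm was not tested.

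Leaving out the animals with 1 replicate number left most strains with 2 animals, and each such run lost some of the calls over all strains. Between 14.1% and 28.9% of all genes then passed, against 36.8% with all animals. Without the animals numbered 1, the adjusted p of Gad1, Gad2, Cck and Calb2 was 0.137, 0.287, 0.0911 and 0.274 and Vip passed. Without those numbered 2, Gad1, Gad2, Vip and Cck lost the call at 0.143, 0.107, 0.159 and 0.373, and Pvalb gained it at 0.000501. Without those numbered 3, Gad2 and Calb2 lost it at 0.0664 and 0.0777. In the reconstructed genes of v7.1, Gad1 (0.0594), Gad2 (0.060) and Calb2 (0.0561) missed the threshold, and in v5 Gad2 did (0.0783) and Lhx6 passed (0.00545).

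Within panels fewer strains were compared. Among the 30 HXB/BXH strains, Gad1 (R2 0.583, adjusted p = 0.00636), Vip (0.509, 0.0407) and Cck (0.572, 0.00323) passed, with 19.1% of all genes passing. Vip lost this call without the animals that stood apart (adjusted p = 0.0853), with the replicate number as a block (0.0526), after quantile normalization (0.0539) and in the Ensembl gene table of v6 (0.0784). In the reconstructed genes of v7.1 all 3 lost it, with Gad1 at 0.104, Vip at 0.262 and Cck at 0.0637. Leaving out a replicate number brought the share of all genes passing in this family to 8.04% to 9.31%. Without the animals numbered 3 all 3 genes lost the call, with Gad1 at 0.0641, Vip at 0.0804 and Cck at 0.165. Without those numbered 2 they did too, at 0.0954, 0.353 and 0.131, and Pvalb passed (0.0188), and without those numbered 1 Gad1 and Vip lost the call, at 0.402 and 0.342, and Lhx6 passed (0.00564). Among the 23 classic inbred strains, Calb2 (0.667, 0.00125), Pvalb (0.617, 0.00652) and Vip (0.585, 0.0195) passed, with 18.6% of all genes passing. In that panel Calb2 lost its call without the animals numbered 1 (adjusted p = 0.322), and Pvalb and Vip lost theirs without those numbered 2 (0.115 and 0.527) and without those numbered 3 (0.213 and 0.148). The share of all genes passing fell to 9.64%, 5.75% and 10.8% in these runs without numbers 1, 2 and 3. With batch as a term Pvalb stood at 0.169 and Vip at 0.0643 there, while Calb2 passed. In the reconstructed genes Calb2 (0.089) and Vip (0.107) missed the threshold, and in v6 Vip did (0.0502). The v5 table went the other way. There Sst (0.027), Cck (1.35e-05) and Lhx6 (0.0446) gained the call in the classic inbred strains, where 31.7% of all genes passed, and Gad2 (0.0445) and Calb2 (0.0198) gained it in HXB/BXH, where 23.5% did. In the classic inbred strains of v7.1 Gad2 stood at 0.0943 and passed at 0.0286 without the animals that stood apart. In the 16 FXLE/LEXF strains 0 of the 10 genes passed by limma, at a background of 5.00%, and the smallest adjusted p was 0.151 for Vip. At an unadjusted p under 0.05 the count there was 2 of 10, against 22.8% of all genes, and without the animals numbered 3 Sst passed (adjusted p = 0.0119), as did 6.79% of all genes. A call in 1 panel and not in another does not show that the panels differ, and the difference in strain variance between panels was not tested.

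**Figure D2:**
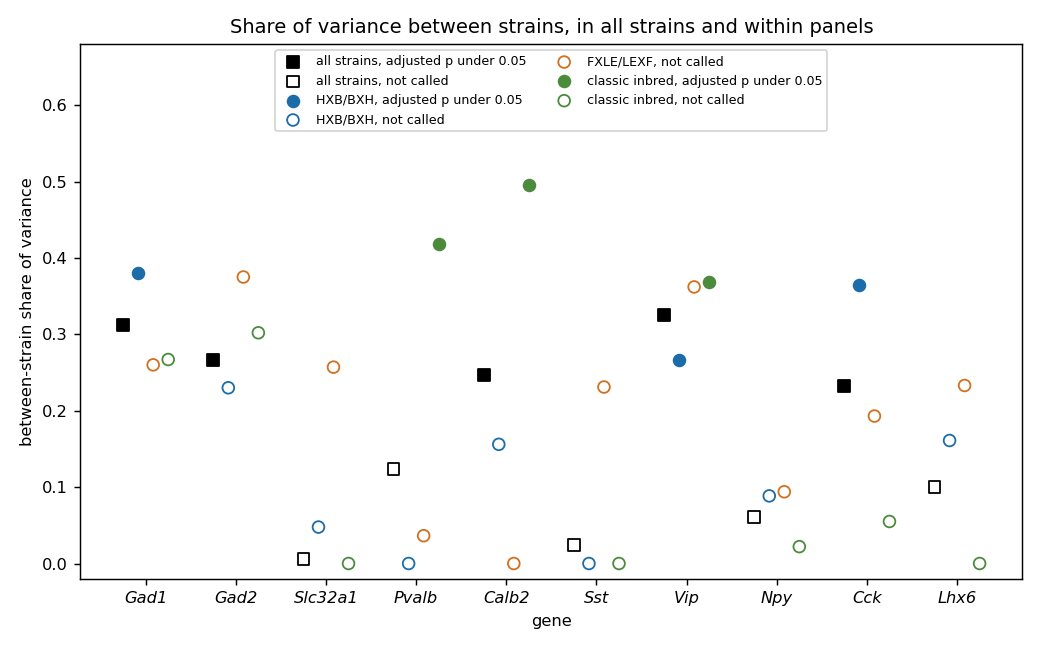
The between-strain share of the variance (vertical axis, from 0 for none) is plotted for each gene over all strains (squares) and within each panel (circles), filled where the adjusted p was under 0.05. Vip lies between 0.267 and 0.368 in all 4 sets, Pvalb at 0 in HXB/BXH and 0.418 in the classic inbred strains, and Slc32a1 at or under 0.257 throughout.

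The founders of the HXB/BXH family were compared next. SHR/OlaIpcv, the spontaneously hypertensive rat, had 2 animals, each the mean of repeated libraries (12 for animal 1, 6 for animal 4), and BN-Lx/Cub had 3. Gad2 was 11.58 and 11.73 in SHR/OlaIpcv and 11.80 to 11.91 in BN-Lx/Cub. The difference of -0.20 (95% interval -0.39 to -0.01) had an adjusted p of 0.238. Calb2 was 0.23 higher in SHR/OlaIpcv (interval -0.07 to 0.54) and Cck was 0.29 lower (interval of the difference -0.76 to 0.17). With batch as a term the differences were larger for Slc32a1 (1.09 in place of 0.20), Calb2 (0.465 in place of 0.23) and Vip (-0.50 in place of -0.13), and none of these 3 passed (adjusted p = 0.112, 0.199 and 0.116). Pvalb went from 0.03 to 0.23, and Sst (-0.13 to 0.29), Lhx6 (-0.06 to 0.19) and Npy (0.01 to -0.15) turned sign, also without passing. In that fit each animal carried 1 batch number, although the libraries of the 2 SHR/OlaIpcv animals came from 12 and 6 batches. The shifts are therefore not a plain correction of the averaged values for batch. Without that term, 0 of the 10 genes passed by limma, with 4.51% of all genes passing in either direction. At an unadjusted p under 0.05 the count was 1 of 10, against 19.2% of all genes.

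Against the normotensive WKY/NCrl (3 animals), the same 2 SHR/OlaIpcv animals had lower Gad2 by 0.21 (interval of the difference -0.40 to -0.01, adjusted p = 0.523), and Lhx6 was lower by 0.29 (-0.57 to -0.01, adjusted p = 0.569). Lhx6 was 7.32 and 7.52 in SHR/OlaIpcv and 7.40 to 7.86 in WKY/NCrl, so the animals overlapped. Vip was 9.25 and 9.33 against 8.86 to 9.31, a difference of 0.25 (-0.02 to 0.53). Again 0 of 10 genes passed by limma, at a background of 0.825%, with 2 of 10 under an unadjusted p of 0.05 against 8.49% of all genes. Per the paper, SHR/OlaIpcv brains were shipped from Prague in liquid nitrogen. Rats of WKY/NCrl came from a vendor, and their brains were kept in RNAlater. Source and storage thus cannot be told apart from strain in this comparison. Per the paper, the same divide separates the HXB/BXH family and both its founders from the other classic inbred strains of that study. Results over all strains and in the classic inbred panel hold it as well. The v5 table holds other SHR/OlaIpcv samples, a single library each of animals 1 and 2, and that of animal 1 is from batch 11, the library with the highest Pvalb (12.46) of the 12 in v7.1. In v5, where 22.6% of all genes passed, Pvalb was 1.05 higher in SHR/OlaIpcv (adjusted p = 4.04e-05) and Calb2 0.59 higher (0.00493). In v7.1 the same differences were 0.20 for Pvalb (adjusted p = 0.846) and 0.27 for Calb2 (0.678), and with batch as a term 0.525 and 0.573 (0.623 and 0.414), while Slc32a1 went from -0.24 to 0.21 (0.897 and 0.953). The 2 SHR/OlaIpcv comparisons share their animals and the limit of the batch term, and are not separate evidence.

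WAG/RijCrl, a strain known for absence seizures, was set against 7 classic inbred strains of batches 15 to 17. The batches were matched only in part, since its animals came from 15 and 16, and 11 of the 21 others came from 17. Its 3 animals had Calb2 at 11.84, 12.02 and 12.37 beside 11.49 to 12.05 in the 21 others, a difference of 0.26 (0.06 to 0.47, adjusted p = 0.273). Cck was 10.86, 11.17 and 11.99 beside 10.45 to 11.57, a difference of 0.34 (0.03 to 0.66, adjusted p = 0.359). Gad1 and Pvalb were lower by 0.13 (interval of the difference -0.27 to 0.00) and 0.23 (-0.48 to 0.02). By limma 0 of 10 genes passed, at a background of 0.743%, and 2 of 10 were under an unadjusted p of 0.05 against 12.2% of all genes. With 2 or 3 animals in the smaller group, the intervals are wide, and those of Slc32a1 reach from -0.37 to 0.76 and from -0.80 to 0.33 in the 2 SHR/OlaIpcv comparisons.

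The next question was which of these genes rose and fell together over strains. Of the 45 pairs, 11 had a correlation of the 69 strain means that passed a two-sided permutation test at 5% after Benjamini-Hochberg adjustment over the 45 pairs (100000 permutations), and 10 of the 11 were positive. Spearman's rho also passed in 11 pairs. The count was 21 with batch as a term and 20 in the reconstructed genes of v7.1. How many pairs of arbitrary genes would pass was not computed, so these counts have no background of their own. Relations over strains were common in the whole table: in the regressions below, 4.59% of all genes passed on Gad1 and 27.5% on Lhx6. Strains of a family are related and share batches, so the permutation p treats them as more independent than they are, and values within panels and batches are given for the called pairs.

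The 2 decarboxylases varied together. Gad1 and Gad2 had r = 0.53 (rho 0.54, adjusted permutation p = 0.000112), and r stayed at 0.53 without BXH8/Cub and HXB5/Ipcv, the strains farthest from the median of Gad1. It was 0.61 in HXB/BXH, 0.73 in FXLE/LEXF and 0.37 in the classic inbred strains, and it was at or above 0 in all 15 batches with at least 6 strains, with a median of 0.49. In a limma regression of every gene on the strain mean of Gad1, Gad2 was the single member to pass (slope 0.49, adjusted p = 0.00128), with 4.59% of all genes passing in either direction. The other 8 slopes on Gad1 lay between -0.24 for Cck and 0.18 for Vip. With batch as a term, Pvalb (r = 0.44), Calb2 (0.435), Cck (-0.36) and Sst (-0.30) passed in the regression on Gad1 as well, where 33.1% of all genes did and Gad2 fell to r = 0.34 (adjusted p = 0.022), and in the v5 table Gad2 lost the call (r = 0.32, adjusted p = 0.0784).

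Sst, Cck, Slc32a1 and Lhx6 formed the other group, in which every one of the 6 pairs passed. The closest was Sst with Cck at r = 0.66 (rho 0.62, adjusted permutation p = 0.000112), followed by Sst with Lhx6 at 0.57 (0.54, 0.000112), Slc32a1 with Sst at 0.56 (0.49, 0.000112), Cck with Lhx6 at 0.47 (0.46, 0.00072), Slc32a1 with Lhx6 at 0.45 (0.44, 0.00075) and Slc32a1 with Cck at 0.38 (0.33, 0.00816). Without the 2 strains farthest from the median of the first gene these 6 values ran from 0.32 to 0.62. Sst with Cck was 0.44 in HXB/BXH, 0.86 in FXLE/LEXF and 0.88 in the classic inbred strains, and in single batches it ran from -0.01 to 0.99 with a median of 0.79. Sst with Lhx6 was 0.40, 0.52 and 0.70 in the 3 panels and Slc32a1 with Sst 0.38, 0.73 and 0.54. In the same order of panels, Cck with Lhx6 was 0.35, 0.50 and 0.63, Slc32a1 with Lhx6 0.24, 0.55 and 0.54, and Slc32a1 with Cck 0.27, 0.61 and 0.30. Their medians over the 15 batches were 0.53, 0.46 and 0.51, and those of Sst with Lhx6 and of Slc32a1 with Sst 0.62 and 0.68, with single batches from -0.54 to 0.97. The group depended on the table. In v5, with 45 strains, Slc32a1 with Sst and with Cck stood at -0.19 each, Sst with Lhx6 at 0.08, Cck with Lhx6 at 0.07 and Slc32a1 with Lhx6 at 0.20, and none of these 5 passed the permutation test. Slc32a1 with Cck lost the call with batch as a term (r = 0.20, adjusted permutation p = 0.164). The between-strain share of the variance was 0.00625 for Slc32a1, 0.0244 for Sst, 0.0999 for Lhx6 and 0.232 for Cck. The strain means of Slc32a1 and Sst thus held mostly the scatter of animals within strains.

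Regressed on Lhx6, Sst (slope 0.86, adjusted p = 2.68e-05), Cck (0.91, 0.000852) and Slc32a1 (0.82, 0.00149) passed in limma, 3 of 9 members, while 27.5% of all genes passed in either direction, so this count too lies near the background. With batch as a term 4 of 9 members passed, Vip among them at r = -0.39, against 70.5% of all genes, and after quantile normalization 3 of 9 against 14.4%. Pvalb, the other main class of cells that carry Lhx6, had a slope of -0.28 (adjusted p = 0.186), which passed without the animals numbered 2 (r = -0.399, adjusted p = 0.00457) and stood at r = 0.06 with batch as a term. Also on Lhx6, Gad1 and Gad2 had -0.06 and 0.09. In the v5 table these 3 lost the call (r = 0.08 for Sst, 0.07 for Cck and 0.20 for Slc32a1, adjusted p = 0.739, 0.773 and 0.332), and Pvalb (r = -0.59, adjusted p = 0.00161) and Calb2 (-0.63, 0.000921) gained it. The slopes on Lhx6 and on Gad1 were also compared between the 3 panels, and 0 genes of the whole table passed in either case. The smallest unadjusted p of a member was 0.0364, for Vip on Gad1, where r was 0.07, 0.66 and -0.17 in HXB/BXH, FXLE/LEXF and the classic inbred strains.

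**Figure D3:**
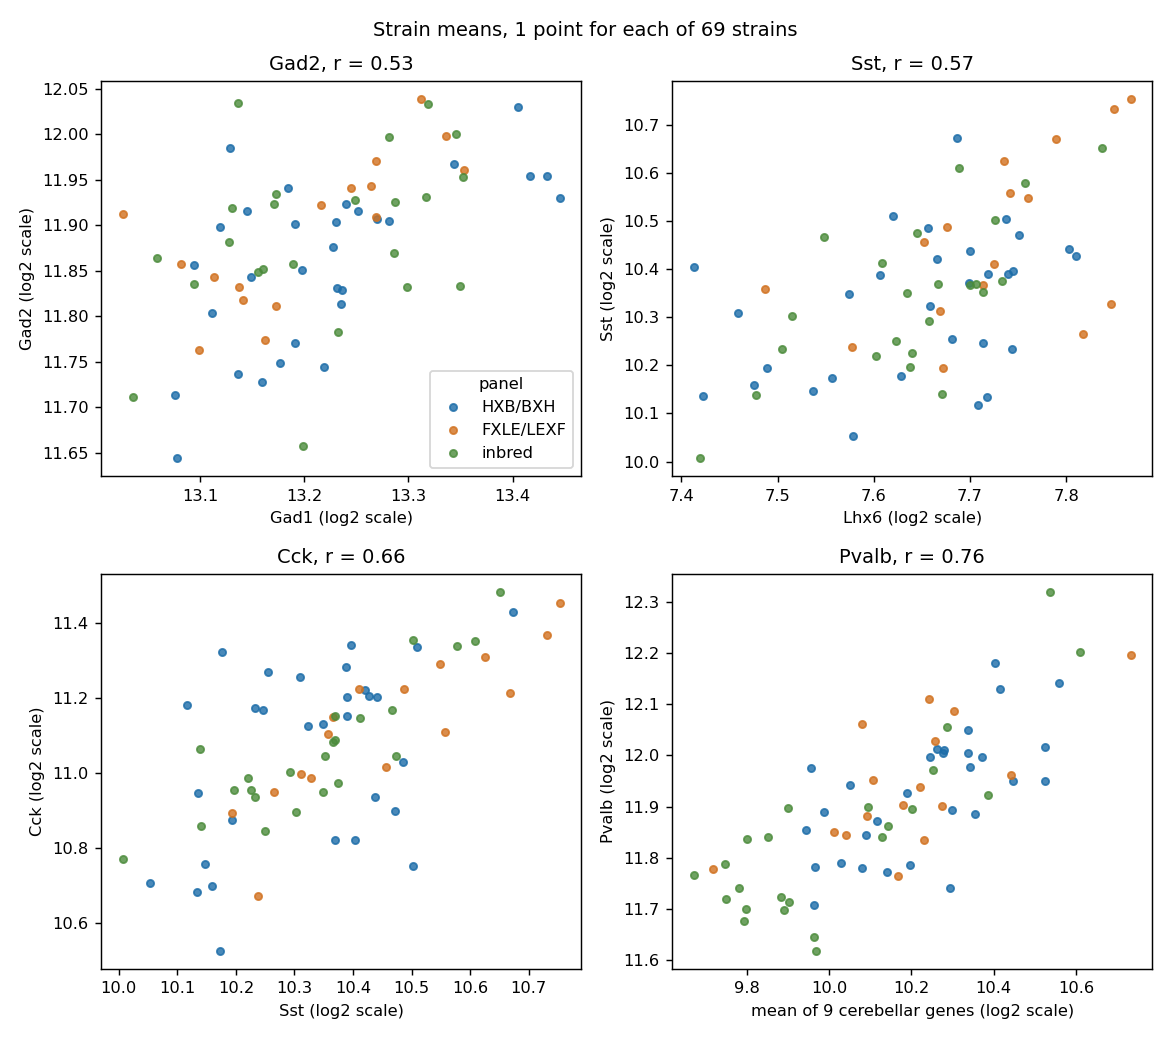
The 4 panels plot strain means on the log2 scale, 1 point for each of 69 strains, coloured by panel: Gad2 against Gad1, Sst against Lhx6, Cck against Sst, and Pvalb against the mean of 9 cerebellar genes. All 4 clouds rise, with r of 0.53, 0.57, 0.66 and 0.76, and the ranges of the 3 panels overlap in each. The low end of the cerebellar axis was mostly classic inbred, from 9.67 in DA/OlaHsd, while the lowest HXB/BXH strain, BXH11/Cub, stood at 9.94.

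The remaining called pairs were weaker. Gad2 with Npy had r = 0.36 (rho 0.42, adjusted permutation p = 0.0109), and Sst with Npy 0.37 (0.36, 0.00827), the latter being 0.02 in HXB/BXH and 0.61 and 0.60 in the other panels. Sst with Npy lost the call with batch as a term (r = 0.19, adjusted permutation p = 0.181) without the animals numbered 2 (0.23, 0.175) and in v6 (0.21, 0.296), and Gad2 with Npy lost it in v5 (0.30, 0.128). Pvalb with Calb2 had 0.31 (0.32, 0.0396). This pair lost the call without the animals that stood apart (r = 0.30, adjusted permutation p = 0.0683) and without doubtful libraries (0.29, 0.062). Slc32a1 with Vip was the one negative pair, at -0.34 (-0.39, 0.0181), with -0.55 in HXB/BXH, -0.23 in FXLE/LEXF and -0.05 in the classic inbred strains, and it lost the call in the reconstructed genes (r = -0.11, adjusted permutation p = 0.419). Gad2 with Npy was 0.45, 0.52 and 0.11 in these panels and Pvalb with Calb2 0.35, 0.41 and 0.13, lowest in the classic inbred strains in both cases. Batch medians were 0.20 for Gad2 with Npy, 0.49 for Sst with Npy, 0.50 for Pvalb with Calb2 and -0.25 for Slc32a1 with Vip, and the sign was that over strains in 12 to 14 of 15 batches. The markers of the 3 main interneuron classes did not pair: r was -0.07 for Pvalb with Sst, -0.13 for Pvalb with Vip and 0.06 for Sst with Vip, and none passed.

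The same correlations were taken over animals, as deviations of the 192 animals from their strain means, which no genetic difference between strains can enter. Sst with Cck was 0.84, Slc32a1 with Sst 0.51, Slc32a1 with Lhx6 0.47, Slc32a1 with Cck 0.46 and Slc32a1 with Vip -0.41, while Sst with Lhx6 was 0.26 and Cck with Lhx6 0.31, below their values over strains, and 7 of the 11 called pairs were at least as far from 0 among animals of a strain as among strains. Gad1 with Gad2 was 0.20 within strains. Pvalb with Calb2 was 0.61, and 4 pairs that had not passed over strains were beyond 0.3 in size among animals, Pvalb with Lhx6 at -0.49, Npy with Cck at 0.49, Calb2 with Lhx6 at -0.44 and Gad1 with Sst at -0.36. In all, 13 of 45 pairs were beyond 0.3 in size within strains and 11 over strains, and 13 were with batch as a term. These values are descriptions and carry no test.

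**Figure D4:**
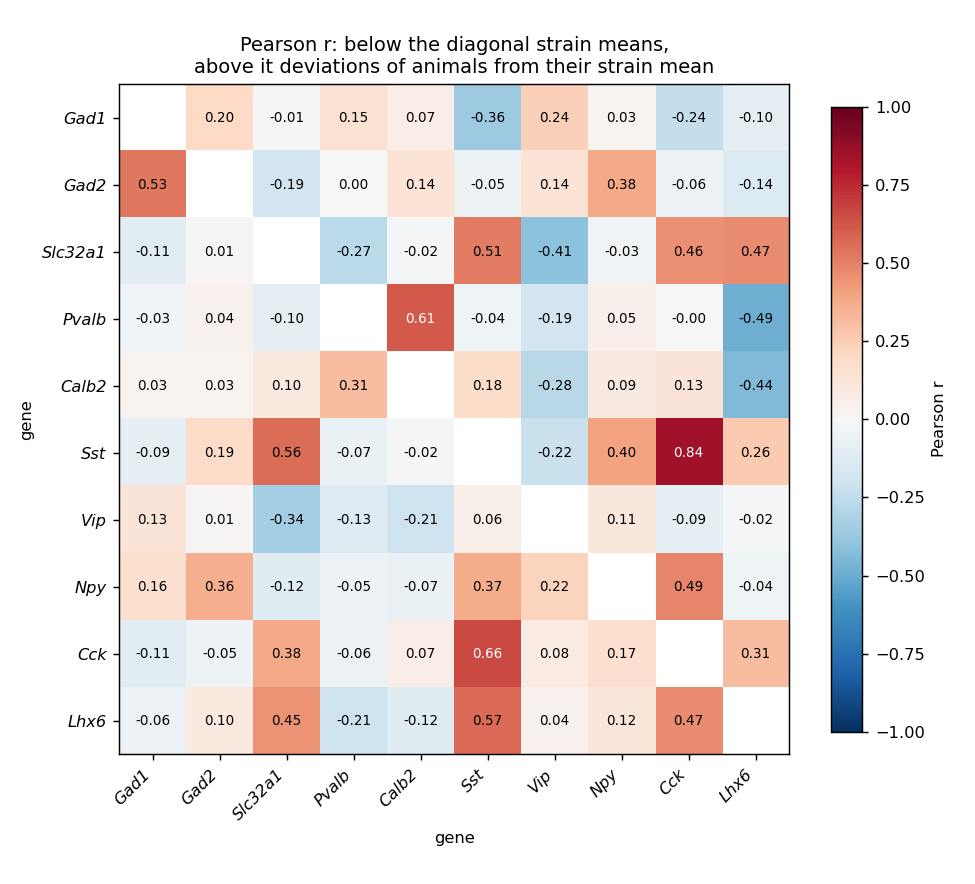
A grid of the 10 genes gives Pearson r for each pair, below the diagonal over the 69 strain means and above it over the deviations of 192 animals from their strain mean, with red for positive and blue for negative values on a scale from -1 to 1. The block of Sst, Slc32a1, Cck and Lhx6 is red on both sides, Gad1 with Gad2 is stronger over strains (0.53 against 0.20), and Pvalb with Calb2 is stronger within them (0.61 against 0.31).

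Repeated libraries of a single animal also differed from each other. The v7.1 table held 12 libraries of SHR/OlaIpcv animal 1 from 12 batches, read as technical repeats because they share a strain and replicate number. Slc32a1 ran from 9.15 to 10.47 over these libraries, with an SD of 0.454 beside 0.317 between animals of a strain. Cck had 0.363 beside 0.260, Sst 0.311 beside 0.255 and Lhx6 0.180 beside 0.156. The other genes were nearer to or below the spread between animals: Pvalb 0.196 beside 0.205, Npy 0.141 beside 0.160, Gad2 0.115 beside 0.105, Gad1 0.104 beside 0.109, Calb2 0.108 beside 0.169 and Vip 0.103 beside 0.153. The 6 libraries of animal 4 gave smaller values than animal 1 for Slc32a1 (0.193), Cck (0.208), Sst (0.177), Lhx6 (0.114), Pvalb (0.108) and Npy (0.0961). Their values were larger for Gad1 (0.131, above the spread between animals), Calb2 (0.151) and Vip (0.120), and Gad2 had 0.116.

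Slc32a1, Sst and Cck varied together between the libraries of animal 1. Over the 12 libraries, r was 0.87 for Sst with Cck, 0.86 for Slc32a1 with Sst, 0.82 for Slc32a1 with Cck, -0.68 for Slc32a1 with Vip and -0.74 for Slc32a1 with Pvalb. Lhx6 had 0.49 with Slc32a1, 0.21 with Sst and 0.14 with Cck. In the library of batch 11, Slc32a1 was at 9.15, Sst at 9.42 and Cck at 10.10, the lowest of the 12 for each, while Gad1 was at its highest, 13.51. In the library of batch 13 Slc32a1 was at 10.47, Sst at 10.38 and Cck at 11.28. Gad1 with Gad2 was 0.51 in this set. The part of library preparation in the correlations over strains was not tested.

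**Figure D5:**
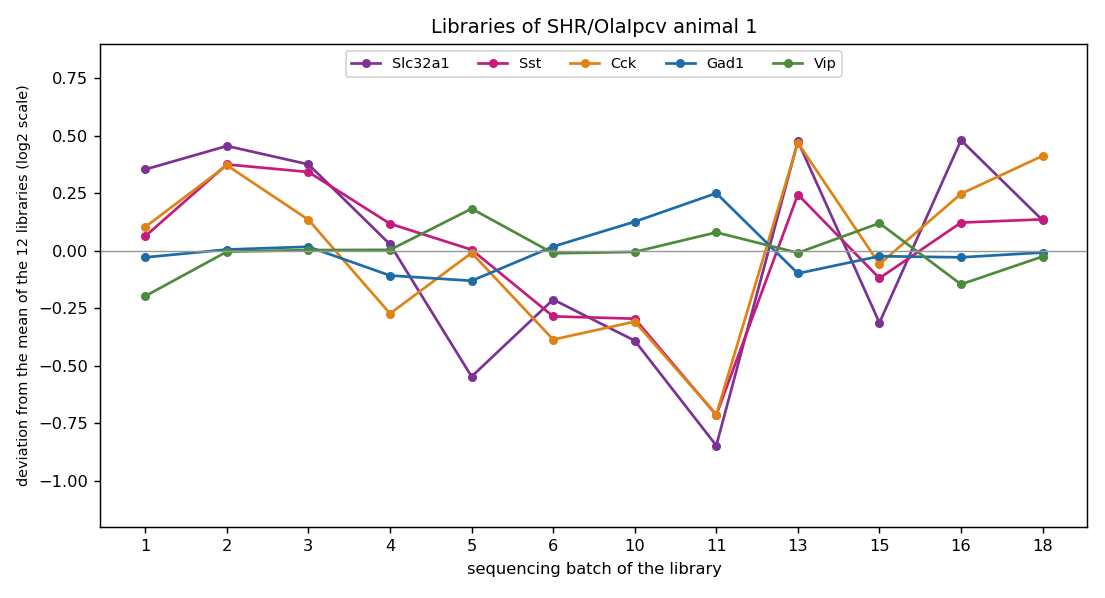
The deviation of each gene from its mean over the 12 libraries of SHR/OlaIpcv animal 1 (vertical axis, log2 scale) is plotted by sequencing batch (horizontal axis), with lines that only join the points of a gene. Slc32a1, Sst and Cck drop together in batch 11 and stand high together in batch 13, while Gad1 and Vip stay closer to 0.

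Regional markers were laid beside these genes, since a sagittally split brain can hold unequal amounts of a region. Parvalbumin followed the cerebellum: r of Pvalb with the mean of 9 measured cerebellar genes, out of 10 listed, was 0.76 over strains and 0.82 within strains, and each of the 9 was positively related to it, from 0.51 to 0.75. The highest of them was Neurod1, a factor of granule cells. That list mean ran from 9.67 to 10.73 over strains, and only 1 of its 9 genes, Cbln3, passed the F-test over strains (R2 0.464, adjusted p = 0.0314). Calb2 had r = 0.47 and 0.68 with the same mean. With the cerebellar mean as a covariate, added after the data had been seen, Pvalb passed over all strains (adjusted p = 0.00883) and no longer among the classic inbred strains (0.211).

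Lhx6, Sst, Slc32a1 and Cck were positively related to the mean of cortical glutamatergic markers. With the mean of 9 such genes Lhx6 had r = 0.73 over strains and 0.60 within them, Sst 0.59 and 0.41, Slc32a1 0.47 and 0.38 and Cck 0.45 and 0.51. Of the 9 genes, 8 were positively related to Lhx6 (-0.05 to 0.67), to Sst (-0.12 to 0.73) and to Cck (-0.14 to 0.57) over strains, but 6 to Slc32a1, from -0.51 to 0.72. Single markers of other cell types stood as close to Slc32a1: Mag of oligodendrocytes had r = 0.65 over strains and 0.83 within them, Aldh1l1 of astrocytes 0.59 and 0.60, and C1qa of microglia 0.48 and 0.48. With the means of the 4 genes of each of these types Slc32a1 had 0.05, 0.20 and 0.11 over strains. Sst and C1qa had 0.41 over strains and 0.64 within them, and Sst with the microglial mean 0.17 and 0.28. Among the cortical genes Emx1, a homeobox gene of dorsal telencephalon, was the gene of the list nearest to Lhx6 (0.67), Sst (0.73) and Cck (0.57). The list mean ran from 10.14 to 10.57, and Neurod2 (R2 0.507) and Slc17a7 (0.459) were among its genes that passed over strains. When the cerebellar and cortical means were removed from the strain means, 6 of the 45 pairs still passed and Sst with Lhx6 fell to r = 0.25 (adjusted permutation p = 0.215), with Slc32a1 with Cck, Slc32a1 with Lhx6 and Cck with Lhx6 also losing the call at 0.218 each. Pvalb with Calb2 then stood at r = -0.12. Whether unequal tissue accounts for the relations was not tested.

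Other regional and cell type lists were described in the same way. Of 11 striatal genes 10 passed over strains, led by Syndig1l (R2 0.760), Pdyn (0.655) and Penk (0.575). With the striatal mean, r over strains and within them was 0.54 and 0.39 for Sst, 0.43 and 0.45 for Lhx6 and 0.40 and 0.32 for Cck. It was 0.39 and 0.21 for Npy and 0.36 and 0.47 for Slc32a1. Pvalb (-0.11 and -0.43) and Calb2 (-0.13 and -0.26) were negative. Of 8 olfactory bulb genes 6 passed, with Eomes from 5.83 in SR/JrHsd to 7.70 in BXH6/Cub, whose animal 3 stood apart by its liver genes, and r of the members with that mean lay between -0.20 and 0.23. Of 7 measured hindbrain genes 2 passed, Slc17a6 and Glra1, and of 8 hypothalamic genes 2, Agrp and Pomc, and r of Calb2 with the hindbrain mean was 0.40. Astrocyte genes passed in 3 of 4, oligodendrocyte genes in 3 of 4, microglial genes in 4 of 4 and liver genes in 0 of 8 by limma, with 0 of 8 at an unadjusted p under 0.05. Lists of this size are counts only, to be read beside the 36.8% of all genes.

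Of 7 genes listed under GABA uptake and breakdown, which also held the glutamine transporter gene Slc38a1 and the synaptic scaffold gene Gphn, 4 passed over strains. Slc6a13, the transporter GAT2 of meninges and liver, had R2 0.630 and ran from 8.68 in BN-Lx/Cub to 9.49 in SS/JrHsd. Abat, the GABA transaminase, had 0.587 and ran from 12.73 in HXB10/Ipcv to 13.14 in LH/MavRrrc. HXB10/Ipcv rests on 2 animals, and animal 1 was the one with the highest liver mean. Slc32a1 had r = 0.49 over strains and 0.67 within them with the mean of these 7 genes, 5 of which were positively related to it. The gene farthest from 0 was Gphn, at -0.64 both over strains and within them.

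Of 17 interneuron transcription factors 1 passed, Nkx2-1 (R2 0.464, adjusted p = 0.0336), the factor upstream of Lhx6 in the medial ganglionic eminence. Its level ran from 5.32 in BDIX/NemOdaMcwi to 6.23 in BN-Lx/Cub. Of 18 subtype genes 7 passed, led by Htr3a, the serotonin receptor subunit of the Vip and Reln group (R2 0.660, 7.06 in LH/MavRrrc to 7.84 in BDIX/NemOdaMcwi), Crhbp (0.607) and Ndnf of neurogliaform cells (0.553). Gad2 was the member nearest to the mean of these 18 genes, with r = 0.59 over strains and 0.43 within, and 0.69 with Erbb4, the neuregulin receptor of interneurons. Slc32a1 and Elfn1, a synaptic adhesion gene of Sst cells, had r = 0.83 over strains and 0.78 within. Of the 18 subtype genes 10 were positively related to Slc32a1 over strains, and r ran from -0.47 to 0.83.

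Over the whole table, 3 genes were named for each member whose strain means ran nearest to it. For Slc32a1 they were Caskin1 and Atp13a2 (r = 0.93 each) and Ncdn (0.92), and within strains these 3 stood at 0.88 to 0.91. Gad2 was nearest to Cntnap2 (0.75), Plcxd3 (0.71) and Nalcn (0.69), and Gad1 to Sel1l, Nup98 (0.64 each) and Wasl (0.62). For Pvalb they were Arhgef33 (0.79) and the cerebellar Neurod1 (0.75) and Slc1a6 (0.72). Sst was nearest to Ly6h (0.81), Adra2c (0.80) and Svop (0.79), and Cck to Adra2c, P4htm and Chmp1a (0.66 each). Vip had Kcnv1 (0.64), Ptk2 and Kcnt2 (0.63 each), Npy had Neu2, Bub3 (0.59 each) and Dkk3 (0.58), Calb2 had Laptm4b (0.60), Timp4 and Lypd3 (0.55 each), and Lhx6 had Cacna1b (0.73), Slit3 and Chrm1 (0.72 each). These genes were the highest of 20859, so their r carries no test.

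Promoters of the genes that moved together are shown so that their letters can be compared. The RefSeq promoter table used here matched 8 of the 10 genes, all but Cck and Calb2, in the GRCr8 build, from 250 bases before to 50 bases after the start of the gene. Capitals mark 2 motifs that were searched as exact strings on both strands. They are TGACGTCA, a form of the cAMP response element, found in 1.83% of all 33465 promoters, and TATAAA, the TATA box, found in 14.2%. The promoter of Sst lies at chr11:90461296-90461595 on the plus strand, that of Slc32a1 at chr3:167686995-167687294 on the plus strand, that of Lhx6 at chr3:39853374-39853673 on the minus strand and that of Vip, the gene that ran against Slc32a1, at chr1:44470230-44470529 on the plus strand.
Sst: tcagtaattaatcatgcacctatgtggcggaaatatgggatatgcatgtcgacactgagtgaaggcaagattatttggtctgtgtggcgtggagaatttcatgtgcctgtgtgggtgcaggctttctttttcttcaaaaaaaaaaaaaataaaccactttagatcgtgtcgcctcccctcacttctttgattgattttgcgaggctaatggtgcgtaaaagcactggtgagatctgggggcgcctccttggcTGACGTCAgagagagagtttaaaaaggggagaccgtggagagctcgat
Slc32a1: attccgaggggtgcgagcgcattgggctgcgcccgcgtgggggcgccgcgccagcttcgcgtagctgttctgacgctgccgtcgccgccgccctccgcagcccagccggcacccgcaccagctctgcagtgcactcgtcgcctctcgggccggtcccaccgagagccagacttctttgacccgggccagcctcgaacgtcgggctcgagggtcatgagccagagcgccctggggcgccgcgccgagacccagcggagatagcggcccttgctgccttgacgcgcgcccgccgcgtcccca
Lhx6: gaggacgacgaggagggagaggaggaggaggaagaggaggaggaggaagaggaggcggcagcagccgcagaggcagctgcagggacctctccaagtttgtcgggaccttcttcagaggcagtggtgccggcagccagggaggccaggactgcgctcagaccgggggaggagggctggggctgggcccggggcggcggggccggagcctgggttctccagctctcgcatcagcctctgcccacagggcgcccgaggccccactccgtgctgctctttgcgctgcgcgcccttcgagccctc
Vip: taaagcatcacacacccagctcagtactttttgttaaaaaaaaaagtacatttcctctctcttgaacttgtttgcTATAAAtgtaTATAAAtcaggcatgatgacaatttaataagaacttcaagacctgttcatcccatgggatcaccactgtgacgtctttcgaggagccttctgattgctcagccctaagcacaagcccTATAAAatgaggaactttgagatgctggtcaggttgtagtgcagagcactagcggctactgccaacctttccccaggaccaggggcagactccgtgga

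The exact string TGACGTCA was found in the window of Sst and in none of the other 7 windows. Variants of the cAMP response element were not searched, and the window of Vip holds tgacgtct, which differs from that string in the last base. TATAAA occurred 3 times in the window of Vip and 1 time in that of Gad1 (chromosome 3, 75777202 to 75777501 in GRCr8). In Gad1 it began at base 38 of the window, far before the start of the gene. The TGACGTCA of Sst began at base 253, just after the start used here. The GC content was 45.7% for Sst, 73.7% for Slc32a1, 70.7% for Lhx6 and 44.0% for Vip, beside a median of 51.7% over all promoters, so that the genes of the correlated group did not share it. Gad1 and Npy had 67.7% each, Gad2 63.7% and Pvalb 60.7%. A match of letters describes the window and is not a bound site.

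The transcript table held 17 RefSeq transcripts of the 10 genes, and 6 of them passed over strains, at a background of 13.4% of 45991 transcripts. They were NM_012563.2 of Gad2 (adjusted p = 0.0216), NM_053991.1 of Vip (0.00116), NM_012829.2 and XM_039080873.1 of Cck (0.0208 and 0.000168), NM_053988.2 of Calb2 (0.00737) and NM_001107837.2 of Lhx6 (0.0064). With each replicate number left out in turn, 0 to 3 transcripts passed: 0 without number 1, 2 without number 2 and 3 without number 3, where 4.77%, 4.75% and 7.21% of all transcripts passed. Without number 2 all 6 lost the call and the 2 that passed were those of Pvalb, while the 3 without number 3 were NM_053991.1, XM_039080873.1 and NM_001107837.2. Lhx6 thus had a transcript that passed where the gene did not. NM_001107837.2 had strain means from 1.62 to 6.93 with a within-strain SD of 1.40, and its r with the gene level was 0.48. The 2 transcripts of Cck ran together over strains (r = 0.61), as did those of Pvalb (0.77), while the 3 of Lhx6 did not (-0.16 to 0.04). NM_012563.2 of Gad2 lost the call with batch as a term (0.0618) and after quantile normalization (0.0717), and NM_017007.2 of Gad1 gained it with that term (0.0177). How reads are shared among transcripts of 1 gene was estimated by the authors, so such values depend on each other.

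Whether the HXB/BXH strains fell into separate classes was asked with mixtures of 1 to 3 normal distributions fitted to their 30 strain means. For 3 of the 10 genes 2 clusters had the lower Bayesian information criterion (BIC): Cck (gain 3.95, 12 strains in the smaller cluster), Gad1 (2.44, 5 strains) and Lhx6 (0.386, 9 strains). More than 1 cluster was chosen for 11.7% of all genes. With a gain of more than 6 required, 0 of the 10 genes kept 2 clusters, against 3.36% of all genes, a description without a test.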

How the data were processed

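RNA of whole brain from untreated rats was sequenced from rRNA-depleted stranded libraries. Per the labels, 232 samples of 74 strains were deposited in versions v5, v6 and v7.1. For v5, the authors trimmed reads (cutadapt 1.9.1), removed ribosomal reads (Bowtie2 2.3.4.3), aligned to strain-specific rn6 genomes (HISAT2 2.1.0), reconstructed transcripts (StringTie 1.3.5), estimated counts with RSEM, removed a factor of unwanted variation and applied the regularized log of DESeq2. The submitters' processing notes also name Bowtie2 2.4.5, HISAT2 2.2.1, RSEM 1.3.1 and 1.3.3 and StringTie 2.2.1. The steps, build and normalization of v6 and v7.1 are not given in the sources used here. The deposited values of the tables used are on a log2 scale, a reading from their range and from the authors' methods for v5. In the annotation files, the deposited positions and names (other values) were used for rn6 coordinates and symbols. A regularized log shrinks the differences of low genes.

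The main table was the v7.1 RefSeq gene table. Left out were 73 spike-in rows and, over all tables, 4 columns that could not be tied to 1 sample. Libraries of 1 strain and replicate number were averaged to 1 animal, a reading of the labels. Strain effects, contrasts and regressions were fitted with limma 3.58.1 in R 4.3.3 over all 20859 genes with Benjamini-Hochberg adjustment. Replicates are separate animals by their replicate number. Pairs were tested with numpy 2.4.6, and modality with mclust 6.1.1. No counts were given, so depth is unknown and the number of animals limits the precision. On simulated data the steps recovered 99.5% of strain effects as large as the within-strain SD, 96% of strain differences of 1, and 100% of added slopes of 1 SD on Gad1, in 200 changed genes each of the whole table. For modality, 99% of 200 with 2 clusters 5 SD apart were recovered among 700 genes. False calls among unchanged genes numbered 16, 13, 12 and 33 in these 4 steps. The simulated strain effects and differences were larger than those of the members, so these shares do not give the power for them. For Vip the SD was 0.106 between strains and 0.153 within. The largest member difference in the main strain comparisons was -0.38, for Cck in SHR/OlaIpcv minus WKY/NCrl.

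The members, lists and tests were chosen with earlier results of these data known. Named genes were the members, at most 3 per list with the highest R2 among those passing, the list gene with the highest absolute r with a member, the 3 genes with the highest r with each member, provisional symbols left out, and the strains with the lowest and highest mean. Some genes that this rule names are not reported here. Alternatives were batch or replicate number as a term, a level filter, quantile normalization, each replicate number left out, doubtful libraries left out and 3 other tables. A covariate of cerebellar genes, removal of 2 regional means and leaving out animals that stood apart were added after seeing the data.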

Additional observations from a re-analysis of the deposited data

How the results depend on the processing

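Counts are of the 10 genes that passed at 5%, of 45 pairs or of 17 transcripts. The replicate numbers did not pair animals of different strains (mean r of deviations 0.024 for the same number and -0.012 for other numbers). With the replicate block the counts were 5 over all strains (38.2% of all genes), 2 in HXB/BXH (19.1%), 0 in FXLE/LEXF (4.3%) and 3 in the classic inbred strains (17.1%). They were 0 in each of the 3 strain comparisons (1.97% for BN-Lx/Cub, 0.47% for WKY/NCrl and 0.786% for WAG/RijCrl). For Gad1 the count was 1 (5.41%), for Lhx6 3 (24.8%), for transcripts 6 (13.4% of all transcripts) and for pairs 11.

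Shares in parentheses are of all features of the same table under the same setting. With batch as a term 1 gene passed in the classic inbred strains (16.1%), 5 were related to Gad1 (33.1%) and 21 pairs passed. In the reconstructed genes of v7.1, 3 passed over all strains (18.8%), 0 in HXB/BXH (12.7%) and 1 in the classic inbred strains (7.08%), 3 were related to Gad1 (12.7%) and 20 pairs passed. In v5, 5 passed in HXB/BXH (23.5%), 6 in the classic inbred strains (31.7%) and 2 between SHR/OlaIpcv and WKY/NCrl (22.6%), and 2 were related to Gad1 (31.3%). Removal of the regional means left 6 pairs, and a BIC gain over 6 left 0 genes with 2 clusters (3.36%). Leaving out each replicate number in turn gave 1 to 3 genes over all strains (14.1% to 28.9%), 0 to 2 in HXB/BXH (8.04% to 9.31%), 0 to 1 in FXLE/LEXF (0.302% to 6.79%), 1 to 2 in the classic inbred strains (5.75% to 10.8%) and 0 to 3 transcripts (4.75% to 7.21%), and the single animals left in some strains were assumed to vary like the rest.

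Signs turned for Pvalb on Gad1, from r = -0.03 to 0.438 with batch as a term, 0.36 in the reconstructed genes and 0.495 in v5, for Vip on Lhx6 to -0.393 with batch as a term, for Slc32a1 with Sst and with Cck to -0.19 each in v5, and for Pvalb with Calb2 to -0.12 without the regional means. The cause was not tested in any of these. Of 494 values that passed neither way, 52 turned sign. Of the single values under all alternatives, 80 lost the call, 34 gained it and 1197 stayed on the same side of the threshold, some of them with the other sign. The relation to Lhx6 could not be run among genes above the median level, where 9 of the 10 genes remained, nor FXLE/LEXF and WAG/RijCrl in v5. No run that left out a replicate number removed SHR/OlaIpcv animal 4, which v5 does not hold among the columns used. Without counts, what depth limits could not be measured.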
